A study of Mus musculus with 12 samples.

Results

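The expression of 40 genes of DNA replication and mitosis was examined by RNA-Seq in hernia-associated fibroblasts (HAFs), out of 13233 genes in the normalized count table. The 40 genes were taken from a fixed list of names, of which 24 act in DNA replication and 16 in mitosis, and all 40 had a row. HAFs are primary fibroblasts cultured from the lower abdominal muscle (LAM) of Aromhum mice, which carry human aromatase and develop scrotal hernias. All 12 samples came from these mice, so no wild-type cells served as controls. There were 4 groups with 3 samples in each. The vehicle group received ethanol and DMSO, the E2 group 10 nM of E2, and the fulvestrant group 100 nM of the drug. The fourth group received both E2 and fulvestrant at these doses, and incubation was for 48 h in every case. Fulvestrant or DMSO was given first as a pretreatment, and E2 or ethanol was added afterwards. Per the study's methods, the cells were starved of serum before treatment and then kept in little, charcoal-stripped serum. The ages of the mice, and whether replicates 1, 2 and 3 were separate animals or cultures, were not given in the sources used here. The p-values therefore measure only the spread between these samples, which may be technical.

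A cell prepares for division by loading the MCM helicase onto replication origins, with the origin recognition complex, CDC6 and CDT1. CDC7 kinase and the cyclin E genes then start the helicase, together with CDC45 and the GINS proteins, and DNA is copied around the PCNA ring from nucleotides that RRM1, RRM2 and TYMS help to make. Later, cyclin B with CDK1 drives entry into mitosis, and the checkpoint kinases, Aurora kinases and spindle motors separate the chromosomes. Replication genes are classic targets of E2F factors and peak near the start of S phase, whereas many mitosis genes are controlled through a cell cycle homology region (CHR) and peak in G2 and M. E2 drives proliferation in several target tissues, and fulvestrant is an antagonist that also lowers the estrogen receptor ESR1.

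The promoters of replication and mitosis genes differed in the motif letters they hold. RefSeq promoter windows of GRCm38.p6, from 250 bases before to 50 bases after the start, were found for 20 of the 24 replication genes and for 12 of the 16 mitosis genes. The letters searched on both strands were TTTCGCGC or TTTGGCGC for E2F, TTTGAA for the CHR, and CCAAT. E2F letters stood in the windows of 8 of 20 replication genes (40.0%) and 1 of 12 mitosis genes (8.33%), against 0.929% of the 27025 genes with a window. CHR letters stood in 3 of 20 replication genes (15.0%) and 9 of 12 mitosis genes (75.0%), against 20.2% of all genes. CCAAT stood in 15 and 11 of these genes (75.0% and 91.7%), against 41.1%. The full estrogen response element, GGTCA and TGACC with any 3 bases between them, was in no window of these 32 genes and in 0.0740% of all genes. Such matches describe letters only and say nothing about which factor binds.

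The 160 bases before the start are given 5′ to 3′ in the direction of the gene, with E2F and CHR letters in capitals, for genes whose values are described further on. They show 1 CHR match in Mcm2, overlapping E2F matches in Mcm5 and Mcm6, both kinds in Cdk1, and 2 CHR matches in Mki67. The E2F and CHR letters overlapped nowhere in the members' windows, and 1 E2F match overlapped a CCAAT.
Mcm2 (chr6:88898781-88898940, minus strand): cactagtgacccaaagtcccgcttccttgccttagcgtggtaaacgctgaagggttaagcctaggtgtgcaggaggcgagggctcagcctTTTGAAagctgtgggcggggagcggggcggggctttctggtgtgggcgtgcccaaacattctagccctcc
Mcm5 (chr8:75109349-75109508, plus strand): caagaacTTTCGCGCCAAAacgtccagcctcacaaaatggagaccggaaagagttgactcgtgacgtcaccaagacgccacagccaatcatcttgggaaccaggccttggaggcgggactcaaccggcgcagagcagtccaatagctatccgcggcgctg
Mcm6 (chr1:128359706-128359865, minus strand): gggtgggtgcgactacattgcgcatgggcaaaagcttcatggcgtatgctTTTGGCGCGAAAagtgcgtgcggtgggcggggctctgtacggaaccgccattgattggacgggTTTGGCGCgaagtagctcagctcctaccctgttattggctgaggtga
Cdk1 (chr10:69352913-69353072, minus strand): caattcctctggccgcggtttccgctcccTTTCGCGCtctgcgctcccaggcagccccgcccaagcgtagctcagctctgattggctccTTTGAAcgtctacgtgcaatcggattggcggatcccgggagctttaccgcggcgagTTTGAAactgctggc
Mki67 (chr7:135716380-135716539, minus strand): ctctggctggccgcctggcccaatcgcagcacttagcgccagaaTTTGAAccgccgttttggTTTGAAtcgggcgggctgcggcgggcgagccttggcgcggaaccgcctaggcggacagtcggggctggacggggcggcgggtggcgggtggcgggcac

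**Figure D1:**
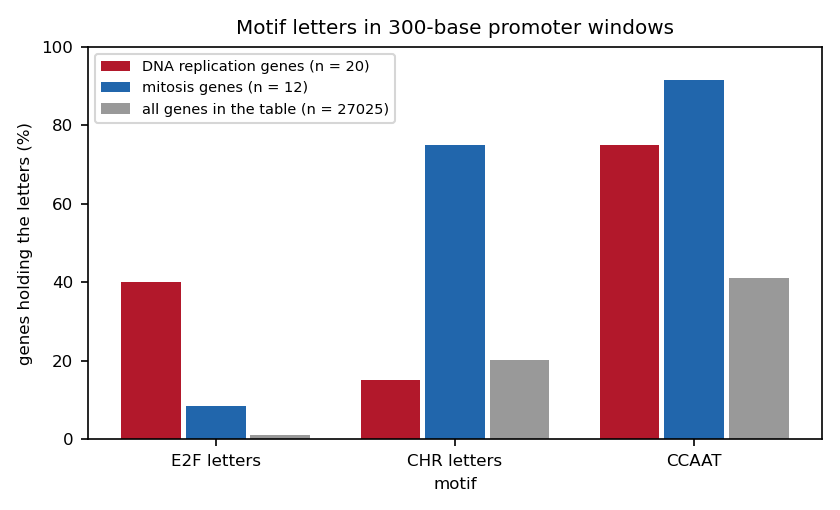
Share of genes (%) whose promoter window of 300 bases holds the E2F letters, the CHR letters or CCAAT, for 20 replication genes (red), 12 mitosis genes (blue) and all 27025 genes in the RefSeq table (grey). E2F letters stand out in the replication genes (40.0%) and CHR letters in the mitosis genes (75.0%).

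The values are normalized counts, and are whole numbers divided by one factor per sample. Taken as reads, which the values alone do not settle since counts adjusted for batch would be whole too, they give at least 10 per listed gene and sample and between 18827792 and 44040507 per sample (median 31703872). Log2(normalized count + 1) was fitted with limma over all 12 samples with the replicate number as a block. Called genes are those with an adjusted p (Benjamini-Hochberg, over all 13233 genes) under 0.05 and a change of more than 1.2-fold. Fold changes are on this log2 scale and understate those of low genes. Pgr, a known ESR1 target, was 25.4, 85.3 and 104 with vehicle and 145, 268 and 304 with E2. With E2 plus fulvestrant it was 14.8, 28.4 and 27.0 and with fulvestrant alone 13.0, 21.5 and 16.2, so every library with fulvestrant lay below every library without it except vehicle replicate 1. All 7 fibroblast markers were listed, their summed level ranged from 318037 to 409167 with vehicle and from 238926 to 338889 with fulvestrant alone, and none of the 6 myogenic, 4 epithelial or 3 adipocyte markers was listed. Of these 7 markers 4 fell past both thresholds with fulvestrant over the 6 and 6 samples (Col1a1, Col1a2, Dcn and Lum). Pdgfra, Pdgfrb and Thy1 had log2 fold changes of -0.23, -0.13 and -0.41 and were not called. The part of these markers in the results on the 40 genes was not tested. The sum was 350555 to 439639 with E2 and 254244 to 311912 with E2 plus fulvestrant. Of 4 endothelial markers only Tek, and of 5 haematopoietic markers only Cd68, were listed, with at most 277 and 112 normalized counts. In bulk RNA, fewer cells of a type and less RNA per cell cannot be told apart.

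The replication genes ranged from 10.9 normalized counts (Orc1) to 1820 (Rrm1) over the samples, and 17 of 24 had at least 100 in every sample. The mitosis genes ranged from 16.3 (Aurkb) to 745 (Top2a), and 4 of 16 had at least 100 in every sample. More of these genes were called between replicate numbers than in any treatment comparison. Replicate 1 against replicates 2 and 3, over all groups, gave 11 of 24 replication genes lower and none higher, and 10 of 16 mitosis genes lower and 1 higher. Over all genes, 27.0% were lower and 25.4% were higher in this comparison. The median log2 difference was -0.43 for replication, -0.43 for mitosis and -0.02 over all genes. On leaving out single samples these medians ran from -0.55 to -0.22 for replication and from -0.53 to -0.28 for mitosis, in both cases lowest without vehicle replicate 1 and highest without fulvestrant replicate 1.

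Mcm5 was the replication gene with the lowest log2 difference in replicate 1, -1.22 ± 0.17 (SE; adjusted p = 6.13e-05), and Orc1 (-1.22), Ccne2 (-1.03), Cdt1 (-1.02) and Mcm6 (-1.01) followed. All 4 samples of replicate 1 lay below all samples of replicates 2 and 3 for 9 of the 24 replication genes (37.5%) and 5 of the 16 mitosis genes (31.2%), against 23.4% of all genes. Among the mitosis genes Aurkb, a kinase of chromosome segregation, was -0.97 ± 0.27 and the spindle motor Kif20a -0.82 ± 0.13. Cdk1, the kinase of mitotic entry, was the exception and was higher in replicate 1 (0.30 ± 0.10, adjusted p = 0.0211), a call that was lost with quantile normalization, without vehicle replicate 1 and without E2 replicate 1. Some genes of cell identity differed with the replicate number too, in a comparison where 52.4% of all genes were called. The fibroblast marker Thy1 was -3.11 and Tek -1.61 in replicate 1, while Col1a1 was 0.89. With vehicle in replicates 1, 2 and 3, Dcn was 32211, 107287 and 102207, and Lum was 1064, 3337 and 3410. Likewise Pdgfra was 25827, 33942 and 36292, Col1a2 was 243523, 118816 and 118385, and Pdgfrb was 11071, 10161 and 10591. What the replicate number stands for was not given in the sources used here, and its part in the levels of these genes was not tested.

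**Figure D2:**
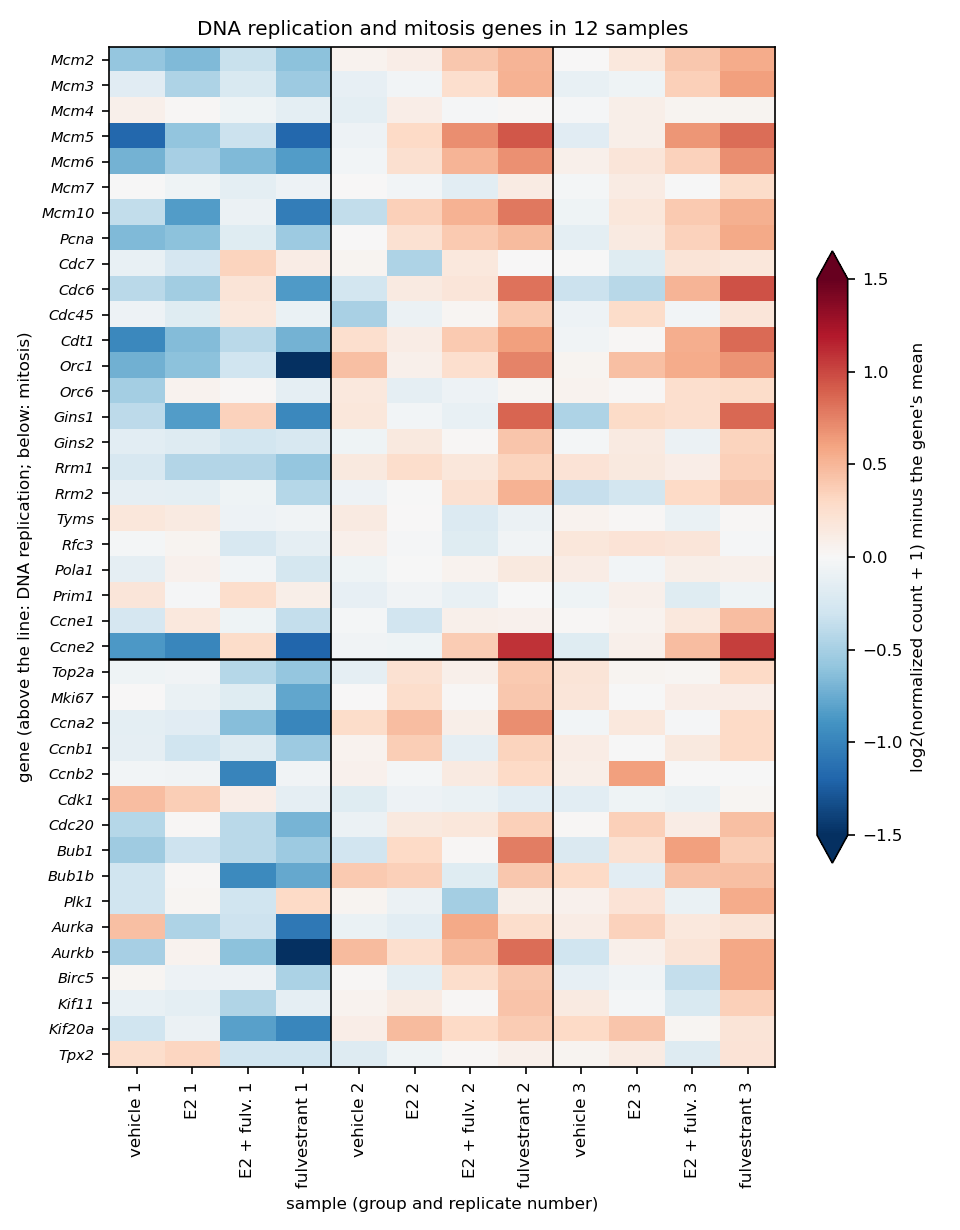
Log2(normalized count + 1) minus the gene's mean over 12 samples (colour, red higher and blue lower, capped at 1.5) for 24 replication genes above the line and 16 mitosis genes below it. Columns are ordered by replicate number and within it by group. The 4 columns of replicate 1 are mostly blue, and the column of fulvestrant alone is mostly blue in replicate 1 and mostly red in replicates 2 and 3.

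Fulvestrant was compared over the 6 samples with it and the 6 without it, and its calls lay among the replication genes. Of the 24 replication genes 5 rose (Mcm2, Mcm5, Cdt1, Pcna and Cdc7) and none fell past both thresholds, where 7.71% of all genes were higher and 7.81% lower. None of the 16 mitosis genes was called by limma, and 1 had an unadjusted p under 0.05. The median log2 fold change was 0.23 over the replication genes, with 19 of 24 above 0 and 11 with an unadjusted p under 0.05, where 39.4% of all genes had one. Over the mitosis genes it was -0.06, with 3 of 16 above 0, and over all genes 0.01. On leaving out samples or replicate numbers the replication median ran from 0.16 (without replicate 2) to 0.34 (without fulvestrant replicate 1), and the mitosis median from -0.18 (without replicate 2) to 0.05 (without replicate 1), with 0.03 without fulvestrant replicate 1. Among genes with a mean of at least 100 the replication median was below this range, as given in the closing section. The difference between the classes was not tested. Without the replicate block 0 of the 40 genes were called in any treatment comparison, and without the library of fulvestrant replicate 1 the 5 became 12. Without replicate 2 or without replicate 3 in all groups the count was 0. The share of all genes called in those fits or without the block is not given here. So a loss of calls over all genes cannot be told from one in these genes. Over all omissions the log2 fold changes ran from 0.26 to 0.39 for Mcm2, 0.42 to 0.75 for Mcm5 and 0.29 to 0.52 for Cdt1. Those of Pcna and Cdc7 ran from 0.29 to 0.42 and from 0.29 to 0.37.

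Mcm2 and Mcm5 are subunits of the replicative helicase. Mcm2 in replicates 1, 2 and 3 was 503, 785 and 759 with vehicle, 478, 809 and 844 with E2, 599, 997 and 999 with E2 plus fulvestrant, and 493, 1078 and 1111 with fulvestrant alone. Mcm5 was 94.8, 204 and 191 with vehicle, 142, 265 and 228 with E2, 172, 350.1 and 340.0 with E2 plus fulvestrant, and 94.5, 412 and 386 with fulvestrant alone. In replicates 2 and 3 the fulvestrant samples lay above vehicle and E2 for both genes, while replicate 1 was lower throughout and hardly differed between vehicle and fulvestrant alone. The groups therefore overlapped. Mcm2 rose 1.24-fold (log2 0.31, 95% CI 0.16 to 0.46, adjusted p = 0.0072) and Mcm5 1.46-fold (log2 0.54, 0.20 to 0.89, adjusted p = 0.0236). The call of Mcm5 was lost when replicate 2 or 3 of vehicle, E2 or fulvestrant alone, or replicate 1 of E2 plus fulvestrant, was left out. In the GENCODE M21 annotation of mm10 these genes lie, by Ensembl identifier, with Mcm2 (ENSMUSG00000002870) at chr6:88883474-88898780 and Mcm5 (ENSMUSG00000005410) at chr8:75109569-75128439. The other helicase subunits were not called. Mcm3 had 0.33 (adjusted p = 0.0598), Mcm6 0.25 (0.113), Mcm4 -0.04 (0.589) and Mcm7 0.01 (0.939). Mcm7 shares 3.9% of its exon bases with other genes on its strand, the largest overlap being the microRNA gene Mir93. Mcm10, which helps the helicase to start, had 0.37 (0.2).

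Cdt1, a helicase loader, was 128, 300.1 and 243 with vehicle, 159.8, 272 and 254 with E2, 190.1, 330.0 and 366 with E2 plus fulvestrant, and 153, 385 and 454 with fulvestrant alone (replicates 1, 2 and 3). It rose 1.35-fold (log2 0.43 ± 0.11, adjusted p = 0.0148). Its fellow loader Cdc6 was 37.5, 40.9 and 39.5 with vehicle, 34.5, 55.0 and 36.9 with E2, 57.1, 56.8 and 71.1 with E2 plus fulvestrant, and 27.2, 88.4 and 97.3 with fulvestrant alone. The Cdc6 values with E2 plus fulvestrant all exceeded those with vehicle, but fulvestrant replicate 1 was the lowest of the 12 samples. With a log2 fold change of 0.60 and an SE of 0.23, Cdc6 was not called (adjusted p = 0.0799). The origin recognition genes Orc1 and Orc6 had 0.10 and 0.12, neither called, and Orc1 had only 10.9 normalized counts in fulvestrant replicate 1.

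**Figure D3:**
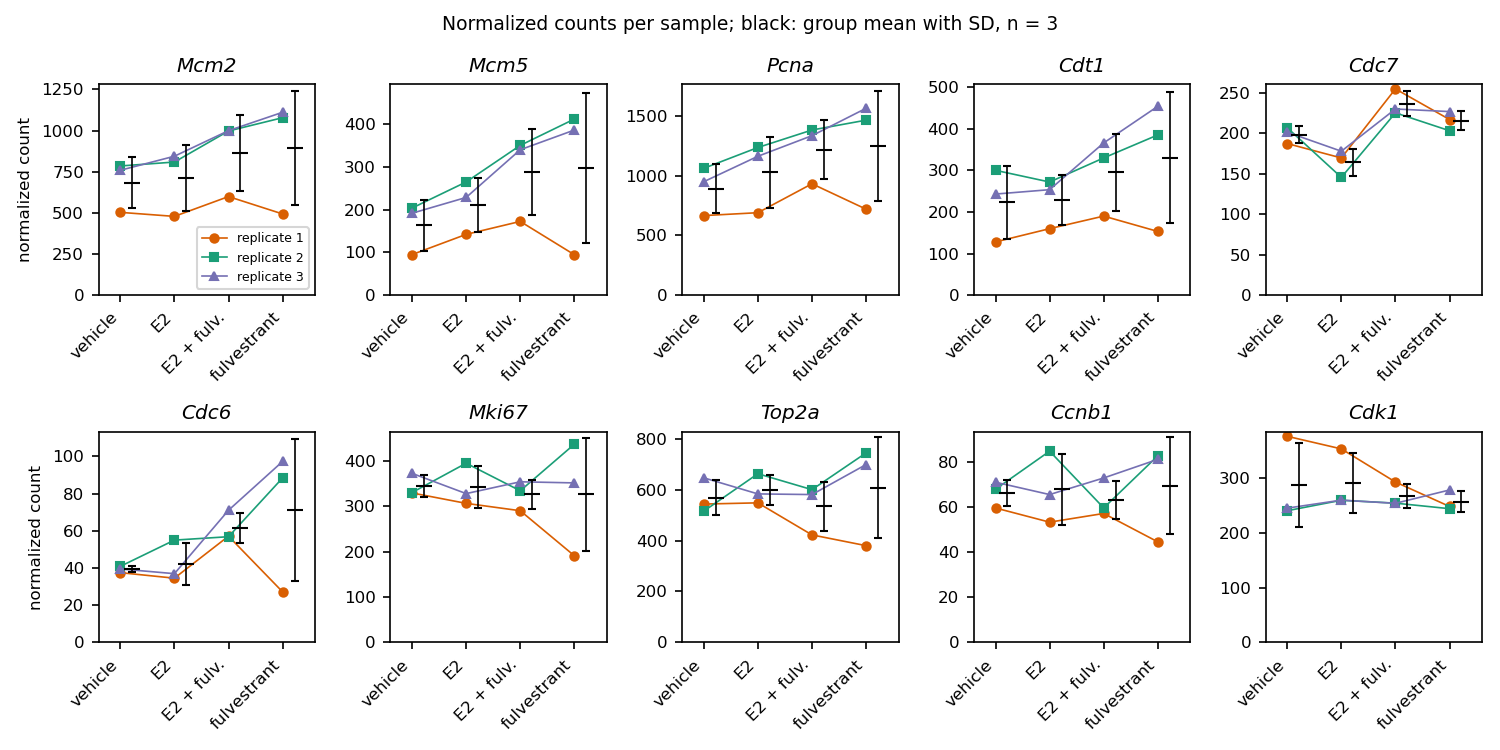
Normalized counts (vertical axes from 0) of 6 replication genes (Mcm2, Mcm5, Pcna, Cdt1, Cdc7, Cdc6) and 4 mitosis genes (Mki67, Top2a, Ccnb1, Cdk1) in the 4 groups. Coloured symbols joined by lines are samples of the same replicate number, and black bars are group means with SD (n = 3). In replicates 2 and 3 Mcm5 is at 204 and 191 with vehicle and at 412 and 386 with fulvestrant alone, whereas in replicate 1 it is at 94.8 and 94.5.

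Pcna, the sliding clamp of DNA polymerases, was 666, 1062 and 950.1 with vehicle, 690.5, 1237 and 1163 with E2, 933, 1383 and 1336 with E2 plus fulvestrant, and 720.1, 1466 and 1565 with fulvestrant alone in replicates 1, 2 and 3. It was higher with E2 plus fulvestrant than with vehicle in each replicate number, and in replicates 2 and 3 fulvestrant alone was the highest. The rise was 1.27-fold (log2 0.35, 95% CI 0.19 to 0.51, adjusted p = 0.00479). The clamp loader subunit Rfc3 had -0.15 (0.13), and the primase and polymerase alpha genes Prim1 and Pola1 had -0.0013 and 0.02, with adjusted p-values of 0.993 and 0.839. The 95% CI of Prim1, -0.17 to 0.17, and of Pola1, -0.13 to 0.17, leave out a rise as large as the estimate for Pcna.

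Cdc7, the kinase that fires origins, had a log2 difference of 0.03 (95% CI -0.15 to 0.21) between replicate 1 and the others. Its values were 187, 207 and 202 with vehicle, 169.7, 146 and 178 with E2, 255, 225 and 230.2 with E2 plus fulvestrant, and 217, 203 and 227 with fulvestrant alone. All values with E2 lay below all with vehicle, and all with E2 plus fulvestrant lay above both, whereas fulvestrant alone overlapped vehicle. Of the replication genes 4.17% had no overlap between E2 and vehicle, against 5.19% of all genes, and 16.7% had none between E2 and E2 plus fulvestrant, against 12.5% of all genes. Over the 6 and 6 samples Cdc7 rose 1.25-fold (log2 0.32 ± 0.08, adjusted p = 0.00947). That call was lost with CPM scaling and on leaving out replicate 1, replicate 2 or replicate 3 in all groups. The 2 parts of this comparison differed in size. Fulvestrant alone against vehicle was 1.09-fold (95% CI 0.92 to 1.28), and E2 against E2 plus fulvestrant was 0.69-fold (0.59 to 0.82). The remaining called genes lie, in the same annotation, with Cdt1 (ENSMUSG00000006585) at chr8:122568015-122573554, Pcna (ENSMUSG00000027342) at chr2:132249162-132253314 and Cdc7 (ENSMUSG00000029283) at chr5:106964322-106984432. The helicase partners Cdc45, Gins1 and Gins2 had 0.21, 0.42 and 0.05, with adjusted p-values from 0.271 to 0.674.

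The nucleotide genes did not move together. Rrm2, the regulated subunit of ribonucleotide reductase, was 246, 256 and 212 with vehicle, 244, 269 and 223 with E2, 258, 315 and 333 with E2 plus fulvestrant, and 201, 389 and 357 with fulvestrant alone, with a log2 fold change of 0.32 ± 0.13 (adjusted p = 0.0826). Its partner Rrm1 had -0.02 (95% CI -0.17 to 0.12). Tyms, which makes thymidylate, was 375, 368 and 347 with vehicle, 368, 334 and 338 with E2, 318, 289.6 and 312 with E2 plus fulvestrant, and 322, 313 and 337 with fulvestrant alone. Tyms pointed the other way from Rrm2, with all 3 values of each fulvestrant group below all 3 of vehicle. Its log2 fold change of -0.17 passed the adjusted threshold (0.0473) but not the fold threshold. Of the E cyclins, which drive entry into S phase, Ccne1 was 118, 138 and 143 with vehicle, 158, 116 and 146 with E2, 135, 148 and 158 with E2 plus fulvestrant, and 109.7, 148 and 195 with fulvestrant alone and had 0.11 (adjusted p = 0.538). Ccne2, named here after its values were seen, was 39.7, 70.5 and 64.3 with vehicle, 36.5, 69.9 and 77.2 with E2, 88.6, 95.3 and 101 with E2 plus fulvestrant, and 31.5, 156 and 151 with fulvestrant alone. Ccne2 had the largest estimate of the 40 genes, 0.68 ± 0.24, but was not called (adjusted p = 0.0548).

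**Figure D4:**
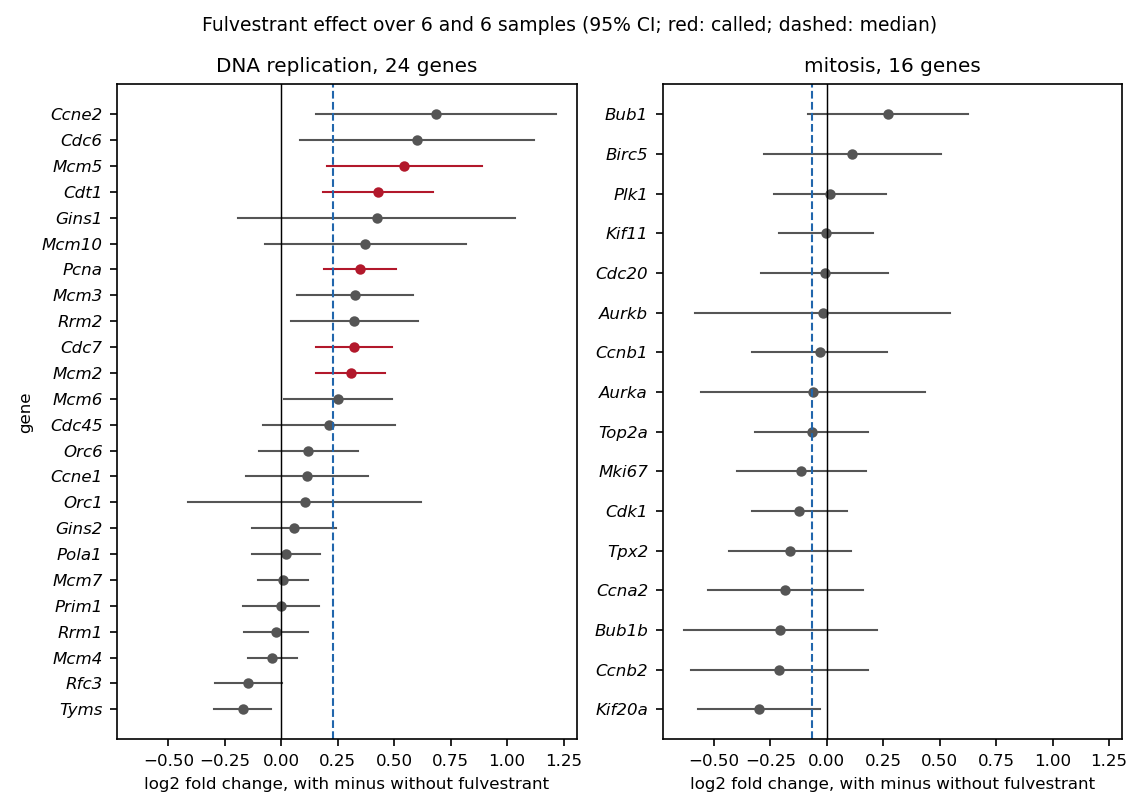
Log2 fold change (horizontal axis) with its 95% CI for each replication gene (left, 24) and mitosis gene (right, 16), over 6 samples with and 6 without fulvestrant, from limma with the replicate block. Red marks the 5 called genes, grey the others, and the dashed line the median of the panel, 0.23 for replication and -0.06 for mitosis.

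The proliferation marker Mki67 was 329.7, 331 and 373 with vehicle, 307, 395 and 328 with E2, 291, 335 and 354 with E2 plus fulvestrant, and 191, 437 and 352 with fulvestrant alone in replicates 1, 2 and 3. Top2a, the topoisomerase that untangles chromosomes, was 544, 516 and 647 with vehicle, 548, 663 and 584 with E2, 422, 600.3 and 581 with E2 plus fulvestrant, and 380.2, 745 and 699 with fulvestrant alone. For both genes the lowest of the 12 values was fulvestrant replicate 1 and the highest was fulvestrant replicate 2. Their log2 fold changes with fulvestrant were -0.11 (95% CI -0.40 to 0.17) and -0.07 (-0.32 to 0.18). Top2a shares 1.4% of its exon bases with another gene on its strand.

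For the cyclins that partner CDK1, the groups overlapped. Ccna2 was 109, 146 and 117 with vehicle, 108, 166 and 135 with E2, 76.8, 128 and 119 with E2 plus fulvestrant, and 60.8, 197 and 149 with fulvestrant alone. Ccnb1 was 59.6, 67.9 and 71.0 with vehicle, 53.3, 84.7 and 65.5 with E2, 57.1, 59.6 and 72.8 with E2 plus fulvestrant, and 44.5, 82.7 and 81.1 with fulvestrant alone. Their log2 fold changes were -0.18 and -0.03 (adjusted p = 0.42 and 0.89). Ccnb2 had -0.21 (0.42). Cdk1 was 377, 241 and 246 with vehicle, 354, 260.1 and 260.3 with E2, 293, 255 and 255 with E2 plus fulvestrant, and 249, 245 and 279 with fulvestrant alone. Its 3 highest values were vehicle, E2 and E2 plus fulvestrant of replicate 1, and its log2 fold change was -0.12 (0.387).

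Cdc20, an activator of the anaphase-promoting complex, was 73.9, 94.0 and 101 with vehicle, 101, 110.0 and 128 with E2, 74.8, 112 and 108 with E2 plus fulvestrant, and 60.8, 127 and 136 with fulvestrant alone. The mitotic kinase Plk1 was 56.2, 71.3 and 72.3 with vehicle, 71.0, 65.4 and 79.8 with E2, 56.1, 48.6 and 64.8 with E2 plus fulvestrant, and 85.8, 73.6 and 102 with fulvestrant alone. Plk1 was the only mitosis gene whose samples with fulvestrant alone all lay above vehicle, and also the only one whose samples with E2 all lay above E2 plus fulvestrant, and it was called in neither comparison. That is 6.25% of the mitosis genes in each, below the 11.1% and 12.5% of all genes without overlap between these groups in either direction. Aurkb was 34.2, 67.9 and 39.5 with vehicle, 50.3, 58.0 and 51.2 with E2, 31.5, 67.8 and 55.8 with E2 plus fulvestrant, and 16.3, 87.6 and 73.0 with fulvestrant alone. Birc5, its partner in the chromosomal passenger complex, was 60.7, 60.0 and 54.2 with vehicle, 56.2, 53.5 and 57.1 with E2, 56.1, 71.5 and 45.9 with E2 plus fulvestrant, and 42.4, 78.5 and 89.2 with fulvestrant alone. In both genes, fulvestrant replicate 1 was the lowest of the 12 samples and replicates 2 and 3 of that group were the highest. The checkpoint genes Bub1 and Bub1b had log2 fold changes of 0.27 and -0.21, Aurka -0.06, and the spindle genes Kif11, Kif20a and Tpx2 -0.01, -0.30 and -0.16, with adjusted p-values from 0.0938 to 0.976.

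Each fulvestrant group was then compared with vehicle, which both comparisons share. Fulvestrant alone gave 2 replication genes higher, Mcm2 (0.33 ± 0.10, adjusted p = 0.0451) and Pcna (0.43 ± 0.10, 0.017), and no mitosis gene by limma (2 at an unadjusted p under 0.05, against 30.5% of all genes), where 6.76% of all genes were higher. Means were 682 ± 156 and 894 ± 348 for Mcm2 and 893 ± 204 and 1250.2 ± 462 for Pcna (SD, n = 3). E2 plus fulvestrant gave 3 replication genes higher, Mcm2 (0.33 ± 0.10, 0.0415), Mcm5 (0.82 ± 0.22, 0.0285) and Pcna (0.45 ± 0.10, 0.0132), where 7.04% of all genes were higher and 5.66% lower. No mitosis gene was called there by limma, and none had an unadjusted p under 0.05. Leaving out vehicle replicate 2, vehicle replicate 3, fulvestrant replicate 2 or fulvestrant replicate 3 took the 2 calls of fulvestrant alone to 0, as did fitting only these groups with the replicate block. The call of Mcm2 was also lost without any one E2 or E2 plus fulvestrant sample, and so held in 2 of the 12 single omissions. With no variance trend and with CPM scaling that call was lost too. Leaving out vehicle replicate 3 or E2 plus fulvestrant replicate 1 took the 3 calls of E2 plus fulvestrant to 0. Without vehicle replicate 2 or E2 plus fulvestrant replicate 2 or 3 only the call of Pcna remained there, and without any one E2 sample that of Mcm2 was lost. With no variance trend the calls of Mcm2 and Mcm5 in this comparison were lost, and with CPM scaling that of Mcm2. The median log2 fold change was 0.29 and 0.26 for the replication genes, and 0.03 and -0.09 for the mitosis genes, with fulvestrant alone and with E2 plus fulvestrant. On leaving out single samples or replicate numbers the replication medians ran from 0.13 (without replicate 3) to 0.49 (without fulvestrant replicate 1) and from 0.15 (without E2 plus fulvestrant replicate 1) to 0.37 (without vehicle replicate 1). The mitosis medians ran from -0.14 (without replicate 2) to 0.25 (without replicate 1) and from -0.25 (without vehicle replicate 2) to 0.04 (without vehicle replicate 1), so neither kept a direction.

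With E2 plus fulvestrant, 5 replication genes (Cdc45, Cdc6, Rrm2, Ccne2 and Cdc7) had all 3 values above those of vehicle, and Tyms had all 3 below. That is 25.0% of the replication genes, against 13.9% of all genes without overlap between these groups. With fulvestrant alone only Tyms, below vehicle, did so (4.17%, against 11.1%). None of these genes was called in either comparison. The order of Cdc6 levels was vehicle (39.3 ± 1.71), E2 (42.2 ± 11.2), E2 plus fulvestrant (61.7 ± 8.13) and fulvestrant alone (71.0 ± 38.2; SD, n = 3), and the largest mean also had the largest spread.

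E2 without fulvestrant gave no called gene among the 40. Over all genes 0.0756% were called in this comparison. By limma 0 members were called and 1, Cdc7, had an unadjusted p under 0.05 (-0.28, 95% CI -0.51 to -0.04, adjusted p = 0.468). The median log2 fold change was 0.05 for replication and 0.08 for mitosis. Neither kept its direction on leaving out samples, with -0.01 (without vehicle replicate 3) to 0.16 (without vehicle replicate 1) for replication and -0.03 (without vehicle replicate 2) to 0.20 (without vehicle replicate 1) for mitosis. The 95% CI was -0.17 to 0.26 for Mcm2, -0.41 to 0.39 for Mki67, -0.41 to 0.44 for Ccnb1 and -0.08 to 0.89 for Mcm5, so a rise of Mcm5 could be missed more easily than one of Mcm2.

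E2 against E2 plus fulvestrant, the comparison at one dose of E2, gave 1 called gene, Cdc7, which was lower with E2 (-0.53 ± 0.11, adjusted p = 0.0105), where 4.97% of all genes were lower. The means were 164 ± 16.8 with E2 and 237 ± 15.9 with E2 plus fulvestrant (SD, n = 3). Without E2 replicate 2 or without E2 plus fulvestrant replicate 1 Cdc7 was not called. The same held without replicate 2 or without replicate 3 in all groups. Without fulvestrant replicate 1 there were 5 called genes, all in replication and lower with E2, where 6.05% of all genes were lower. The replication median was -0.15 with 7 of 24 above 0, and the mitosis median was 0.19 with 13 of 16 above 0. On leaving out samples the first ran from -0.24 (without E2 replicate 1) to -0.03 (without E2 replicate 2) and the second from 0.07 (without E2 replicate 1) to 0.25 (without E2 replicate 3). No mitosis gene was called by limma, and 2 had an unadjusted p under 0.05, against 27.3% of all genes. E2 plus fulvestrant against fulvestrant alone gave 0 called members by limma and 0% of all genes (4 members and 255 genes at an unadjusted p under 0.05). Plk1 differed most there (-0.61 ± 0.16, adjusted p = 1). The interaction of E2 and fulvestrant likewise gave 0 members and 0% of all genes (4 members and 501 genes at an unadjusted p under 0.05).

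Within replicate numbers, the fulvestrant difference of the replication genes had a median of -0.01 in replicate 1, 0.31 in replicate 2 and 0.32 in replicate 3. The mitosis medians were -0.44, 0.15 and 0.08. In replicate 1, 12 of 24 replication genes and 1 of 16 mitosis genes were above 0, against 21 and 12 in replicate 2 and 20 and 12 in replicate 3. Of the replication genes 9 were above 0 in all 3 numbers and 2 were below 0 in all 3.

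A fit with separate fulvestrant effects was added after the values were seen. It had a term for each replicate number and a fulvestrant term within each, but none for E2. Vehicle and E2 thus counted as replicates of one condition, as did E2 plus fulvestrant and fulvestrant alone. The fit gave 8 replication genes higher and no mitosis gene in replicates 2 and 3, where 9.10% of all genes were higher (0 mitosis genes had an unadjusted p under 0.05). The 8 were Cdc6 (0.84 ± 0.24, adjusted p = 0.0218), Mcm5 (0.75), Rrm2 (0.54), Mcm3 (0.52), Cdt1 (0.52), Mcm6 (0.45), Mcm2 (0.39) and Pcna (0.39). In replicate 1 no replication gene was called (1 at an unadjusted p under 0.05), and 3 mitosis genes were lower, where 6.11% of all genes were lower. These were Kif20a (-0.70 ± 0.16, adjusted p = 0.0108), the spindle assembly factor Tpx2 (-0.59 ± 0.14, 0.0147) and Cdk1 (-0.43 ± 0.12, 0.0296). The difference between these effects was called by limma for 0 members, where 5.07% of all genes were called. At an unadjusted p under 0.05 there were 3 replication and 8 mitosis genes and 18.6% of all genes. It is therefore not shown for any single member that fulvestrant acted differently in replicate 1.

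**Figure D5:**
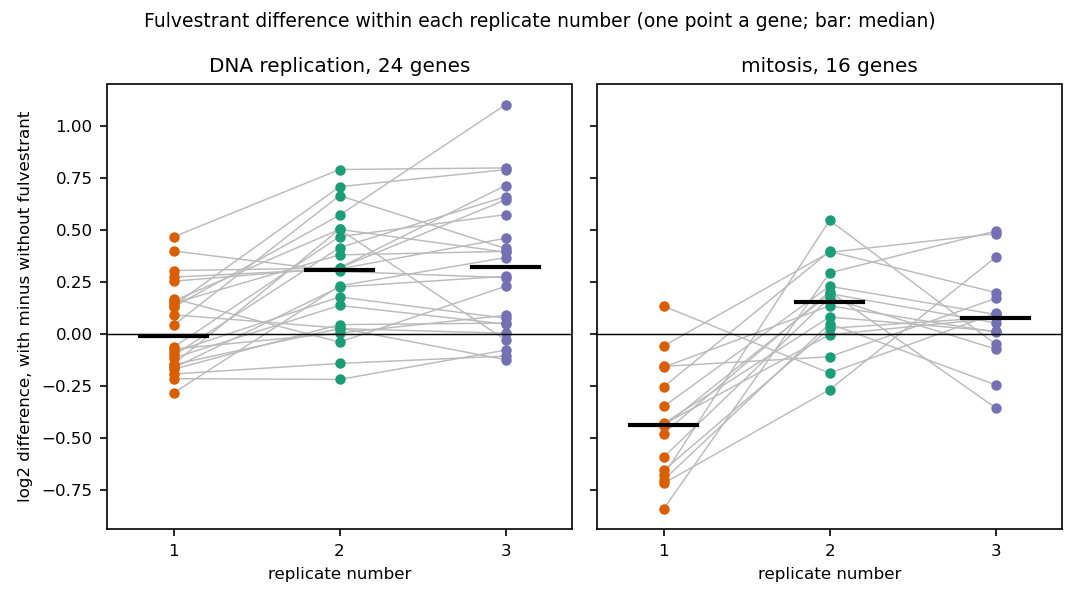
Log2 difference between the 2 samples with and the 2 samples without fulvestrant of each replicate number (vertical axis), for 24 replication genes (left) and 16 mitosis genes (right). Each point is a gene, grey lines join the same gene, and black bars are medians. The replication medians are -0.01, 0.31 and 0.32, and the mitosis medians -0.44, 0.15 and 0.08.

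Without the library of fulvestrant replicate 1, 12 replication genes were higher with fulvestrant over 5 and 6 samples, namely Ccne2, Cdc6, Cdc7, Cdt1, Gins1, Mcm10, Mcm2, Mcm3, Mcm5, Mcm6, Pcna and Rrm2, where 9.05% of all genes were higher. It is given here as the single omission with the highest count, where the other single omissions gave 4 to 7 replication genes. That library was the lowest of the 12 samples for Ccne2, Cdc6 and Rrm2, so leaving it out raises their level with fulvestrant. Without replicate 1 in any group there were 10, where 9.57% of all genes were higher. In fulvestrant alone against vehicle, 10 replication genes were higher without fulvestrant replicate 1, in place of 2, where 8.76% of all genes were higher. Pgr was 13.0 in the library of fulvestrant replicate 1, the lowest of the 12 samples. However, Pgr was lower in replicate 1 than in replicates 2 and 3 (log2 difference -1.04). In replicate 1 it was 145 with E2, 25.4 with vehicle and 14.8 with E2 plus fulvestrant. This level therefore cannot tell fulvestrant alone from E2 plus fulvestrant and is a weak check of the label.

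Other genes of the same processes, from lists put together for this comparison, were counted in the same way. Of 44 further replication genes 3 rose with fulvestrant over the 6 and 6 samples, Gmnn (0.84 ± 0.22, adjusted p = 0.0142), an inhibitor of CDT1, Uhrf1 (0.49, 0.0199), which helps to copy DNA methylation, and Wdhd1 (0.41, 0.00709), a replisome protein. None fell, and their median was 0.04. The 3 are 6.82% of the list, below the 7.71% of all genes that were higher. Of 53 further mitosis genes the spindle gene Nusap1 rose (0.45, 0.0191) and the motor Kifc1 fell (-0.29, 0.0383), with a median of -0.07. These calls were 3.77% of the list, where 7.71% of all genes were higher and 7.81% lower. Of 19 E2F, pocket protein, B-Myb and FoxM1 regulators 1 rose, E2f8, a repressor among the E2F factors (0.82 ± 0.17, 0.00503), with a median of 0.09. That is 5.26% of this list, again below 7.71%. E2f8 was 43.0, 87.0 and 79.7 with vehicle, 51.3, 75.8 and 91.5 with E2, 88.6, 137 and 143 with E2 plus fulvestrant, and 51.0, 195 and 193 with fulvestrant alone in replicates 1, 2 and 3.

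With fulvestrant alone against vehicle, Slbp (0.35, adjusted p = 0.0097), which handles histone mRNA, Nusap1 (0.78, 0.0129), E2f8 (0.89, 0.0317) and E2f4 (0.27, 0.0363) rose, and no gene of the 3 lists fell. These were 1 of 44 (2.27%), 1 of 53 (1.89%) and 2 of 19 (10.5%) of the replication, mitosis and regulator lists, where 6.76% of all genes were higher. With E2 plus fulvestrant against vehicle, Slbp (0.30, 0.0196), E2f8 (0.84, 0.0388) and E2f4 (0.33, 0.0156) rose and Kifc1 (-0.45, 0.0385) fell. The higher genes were 2.27% of the replication list and 10.5% of the regulator list, where 7.04% of all genes were higher, and Kifc1 was 1.89% of the mitosis list, where 5.66% were lower. E2 against E2 plus fulvestrant gave Wdhd1 lower (-0.45, 0.0464), 2.27% of its list where 4.97% of all genes were lower, and E2 against vehicle gave no call in the 3 lists by limma, with 3 genes of the replication list at an unadjusted p under 0.05. The windows of the further mitosis genes held CHR letters in 35 of 50 cases (70.0%), and those of the further replication genes held E2F letters in 5 of 34 (14.7%).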

How the data were processed

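RNA-Seq was analyzed in 12 samples of primary HAFs, grouped and numbered from the sample labels. The deposited signal values are normalized counts, which the authors made by trimming (Trimmomatic 0.39), alignment to mm10 (STAR 2.5.2), counting by gene (HTSeq 0.13.5) and scaling by the median of ratios (DESeq2 1.37), with low counts removed. Tool versions are from the submitters' processing notes. The study's methods also adjusted for unnamed batches. Read from the spacing of the values, these are whole numbers divided by a factor per sample (100.0% within 0.01), taken here as reads, with a smallest value of 10. Batch-adjusted counts would be whole too, so whether the values carry that adjustment cannot be told. For 45.0% of all genes, every sample of replicate 1 lay above or every one lay below all samples of replicates 2 and 3. The step per sample was not established independently, so no test on read counts was run.

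Here limma 3.58.1 (R 4.3.3, eBayes with a variance trend) was run on log2(value + 1) of all 12 samples with 4 group terms and the replicate number as a block. The block was used because the rule that set the members asked for pairing by replicate number, and the study does not name its batches. The number comes from the labels. Deviations from the group mean correlated across genes at 0.63 to 0.92 over 18 pairs of samples with the same number. Over 36 pairs of different numbers the correlations were -0.86 to 0.79, so the ranges overlapped. Deviations within a group of 3 are not independent, which pushes the correlations between different numbers down. The Benjamini-Hochberg adjustment covered 13233 genes. Groups without overlap were counted, and motif letters were searched in RefSeq promoter windows. Alternatives were the pseudocount, a filter on low means, no block, only the groups compared, quantile normalization, no variance trend, adjusted p without the fold threshold, CPM, and omitting samples or replicate numbers. The fit was tested on simulated data. Tables and plots used Python 3.11.15, pandas 2.3.3, numpy 2.4.6 and matplotlib 3.10.9.

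The members, the further lists and the tests were chosen with earlier results of these data known. Values per sample are given for 18 listed members and for the 3 members with the smallest p among those called in each treatment comparison and class, but not for the comparison of replicate numbers or the effects fitted by replicate number. Of the further lists, up to 3 called genes with the largest change are named. Ccne2 and other members outside this rule were named after their values were seen.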

Additional observations from a re-analysis of the deposited data

How the results depend on the processing

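Of 11 called results for single genes, 0 changed direction under any alternative, and 86 of 265 alternative values were no longer called. With no replicate block, 0 replication genes were called in place of 2 for fulvestrant against vehicle, 3 for E2 plus fulvestrant against vehicle, 1 for E2 against E2 plus fulvestrant and 5 with against without fulvestrant, since the difference between replicate numbers then counts as error. Using only the groups compared and no replicate block gave 0, 0 and 0 for the first 3 of these, and with the replicate block 0 for fulvestrant against vehicle and 2 for E2 against E2 plus fulvestrant. With no variance trend, fulvestrant against vehicle gave 1 and E2 plus fulvestrant against vehicle 1, which was Pcna in both. Quantile normalization gave 4 for fulvestrant against vehicle and CPM gave 1, and under CPM, as without replicate 1 in all groups, the rise of Cdc7 was not called. With genes of a mean of at least 100, fewer genes were tested and 7 mitosis genes were called between replicate 1 and replicates 2 and 3 in place of 11. The separate effect in replicates 2 and 3, chosen after seeing the data, called 8 replication genes. Leaving out single samples or replicate numbers gave 0 to 12 called replication genes for fulvestrant against vehicle, 0 to 6 for E2 plus fulvestrant against vehicle, 0 to 5 for E2 against E2 plus fulvestrant and 0 to 12 with against without fulvestrant. The highest counts came without replicate 1 or without fulvestrant replicate 1, and without replicate 2 or without replicate 3 in all groups each count was 0. The share of all genes called without replicate 2, without replicate 3 or without the block is not given here. For mitosis genes the ranges were 0 to 1 for fulvestrant against vehicle (Bub1, without replicate 1), 0 to 1 with against without fulvestrant (Kif20a, without vehicle replicate 2) and 7 to 12 for replicate 1 against replicates 2 and 3. Apart from those named, the cause of these changes was not tested. Other counts moved by at most 1.5 times. Replication medians lay nearer 0 with genes of a mean of at least 100 (0.12 with against without fulvestrant, 0.15 for fulvestrant against vehicle, 0.15 for E2 plus fulvestrant against vehicle and -0.08 for E2 against E2 plus fulvestrant and -0.25 for replicate 1 against replicates 2 and 3), and under CPM the last 3 were 0.17, -0.09 and -0.28. The mitosis median for fulvestrant against vehicle was -0.03 with that mean. With 3 samples a group, the median SE was 0.15 for replication and 0.19 for mitosis genes in log2 units, which limits the differences that could be detected.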
